A study of Homo sapiens with 6 samples.

Results

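The guanylate-binding proteins (GBPs) are interferon-inducible large GTPases. The 7 human genes GBP1 to GBP7 were found by symbol among 19402 genes of the count table, all 7 on chromosome 1 between positions 89006679 and 89386461 of GRCh38. Expression was measured by sequencing poly(A)-selected RNA of CFPAC1 cells, a line from a human pancreatic ductal adenocarcinoma, grown in IMDM with serum. The WT group was 3 pools of clones isolated from cells infected with the lentiCRIPSv2 plasmid (spelled as in the labels), and the IRF1-KO group was 3 pools of clones isolated from cells infected with the same plasmid that carried wild-type Cas9 and a guide RNA against IRF1. No interferon treatment is given in the labels of these 6 samples, all cells were infected and cloned by dilution, and the labels give no number of clones per pool. Values of single libraries are given in the order of replicates 1 to 3.

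IRF1 is a transcription factor that is itself induced by interferon-gamma and then binds near the starts of GBP genes. GBP proteins assemble on the surface of bacteria in the cytosol and on the vacuoles of intracellular parasites. In human epithelial cells GBP1 binds bacterial lipopolysaccharide, and the coat it nucleates recruits GBP2, GBP3, GBP4 and the inflammatory caspase CASP4. GBP1, GBP2 and GBP5 end in a CaaX motif and are anchored to membranes by a prenyl group, while the other members lack one.

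The IRF1 transcript had 82.6 to 91.3 CPM (counts scaled to library size) in the WT libraries and 117 to 132 CPM in the libraries labelled IRF1-KO, where it was not lower. The log2 fold change was 0.51 ± 0.10 (SE), with an adjusted p of 0.135 (edgeR quasi-likelihood) and of 0.00176 with DESeq2. Counts over all exons do not check an edit that leaves the transcript in place, so each direction below is that of the libraries labelled IRF1-KO. Library totals ranged from 16413682 to 28258075 counts, and the 7 GBP genes together took 2387 to 6487 counts of a library. Of 10 ductal epithelial markers, KRT19 and KRT8 had at least 1302 and 1578 CPM in every library, and CFTR, the chloride channel of duct cells, had 1 to 12 counts. The ductal markers CDH1, KRT7, MUC1 and EPCAM were lower in WT replicate 3 (107, 157, 131 and 197 CPM) than in WT replicates 1 and 2 (at least 378, 480, 396 and 414 CPM). MUC1 had a log2 fold change of −1.22 ± 0.53 (SE; adjusted p = 0.553, edgeR quasi-likelihood) with overlapping groups. These 4 markers were chosen after their values were seen. The 10 ductal markers summed to 4556 to 7681 CPM in WT and 5151 to 7070 CPM in IRF1-KO libraries. The leukocyte markers PTPRC and TYROBP had at most 2 and 0 counts. The 8 leukocyte markers summed to 169.8 to 213 CPM in WT and 143 to 179 CPM in IRF1-KO libraries, most of it from the lysosomal gene CD68. LYZ, on the same list, had 13.4 to 75.0 CPM. It was the 1 of 4 tested leukocyte markers without overlap, lower in IRF1-KO libraries, as were 6.75% of all tested genes. Its log2 fold change was −1.09 ± 0.45 (SE; adjusted p = 0.535, edgeR quasi-likelihood). The 6 endothelial markers summed to 5.36 to 7.40 and 7.16 to 8.35 CPM, and the 6 fibroblast markers to 32.4 to 50.04 and 35.2 to 76.4 CPM.

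The promoters of GBP3 and GBP4, the members past the threshold, and of GBP1, the next nearest to it, are shown because IRF sites are known near GBP start sites. They run from 250 bases before to 50 bases after the RefSeq start (GRCh38.p14, 5′ to 3′, all on the minus strand), and capitals mark matches to an IRF motif. GBP1 covers chr1:89065159-89065458, GBP3 covers chr1:89022817-89023116 and GBP4 covers chr1:89198893-89199192.
GBP1: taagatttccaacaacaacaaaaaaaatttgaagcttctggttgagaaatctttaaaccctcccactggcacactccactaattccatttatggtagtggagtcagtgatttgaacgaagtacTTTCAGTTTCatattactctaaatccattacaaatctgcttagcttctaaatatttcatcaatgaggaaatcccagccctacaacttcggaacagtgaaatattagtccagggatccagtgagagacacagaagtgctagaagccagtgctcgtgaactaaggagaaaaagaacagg
GBP3: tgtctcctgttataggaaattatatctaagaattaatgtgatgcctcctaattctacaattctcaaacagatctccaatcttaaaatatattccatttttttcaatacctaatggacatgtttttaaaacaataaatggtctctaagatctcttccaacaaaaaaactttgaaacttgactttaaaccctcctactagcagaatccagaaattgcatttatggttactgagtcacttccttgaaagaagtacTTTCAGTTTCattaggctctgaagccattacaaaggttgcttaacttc
GBP4: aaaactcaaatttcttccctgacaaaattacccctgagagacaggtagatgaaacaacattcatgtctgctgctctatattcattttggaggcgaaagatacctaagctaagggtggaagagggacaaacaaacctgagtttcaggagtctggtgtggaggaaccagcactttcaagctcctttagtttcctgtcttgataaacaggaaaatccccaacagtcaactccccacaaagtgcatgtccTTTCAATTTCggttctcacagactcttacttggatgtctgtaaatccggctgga
The motif was GAAANNGAAA, the core of the interferon-stimulated response element that IRF proteins bind, searched on both strands (TTTCNNTTTC on the other strand). No other motif was searched, so further interferon-linked elements in these windows would be unmarked.

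GBP1, GBP3 and GBP4 each held 1 match to the IRF motif, on the strand opposite to the gene. In GBP1 the match TTTCAGTTTC lay 127 to 118 bases upstream of the start, in GBP3 the same letters lay at bases 3 to 12 of the transcript, and in GBP4 the match TTTCAATTTC began 4 bases upstream and ended at base 6 of the transcript. The GBP1 and GBP3 matches sit in a run of 19 identical bases, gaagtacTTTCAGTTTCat. The windows of GBP6 and GBP7 held no match. Of 27305 RefSeq promoters of 300 bases, 3.65% held the IRF motif. These matches describe letters in a window and not binding, which was not measured here. Promoter sequences were available for 5 of the 7 members, so those of GBP2 and GBP5 were not searched.

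Per kilobase of merged exon, GBP3 was the most abundant member in the WT libraries, followed by GBP1 and GBP2, then GBP4 and GBP6. GBP7 and GBP5 were close to the limit of counting. Levels were compared as CPM per kilobase of exon, using the gene lengths of the count table. GBP3 had 24.8 ± 0.311, GBP1 15.1 ± 2.07, GBP2 13.7 ± 2.62, GBP4 5.87 ± 1.84, GBP6 2.56 ± 1.74, GBP7 0.0919 ± 0.0258 and GBP5 0.0588 ± 0.0206 CPM per kilobase (SD, n = 3 libraries). The values of GBP1 and GBP2 overlapped between libraries, as did those of GBP7 and GBP5, and the other neighbours in this order did not. In CPM without length scaling, GBP2 was above GBP3 in WT replicate 2 (116 against 108) and below it in WT replicates 1 and 3. In the libraries labelled IRF1-KO the order per kilobase of merged exon was different. GBP2 led with 10.3 ± 0.150, then came GBP3 with 9.40 ± 1.23, GBP1 with 6.18 ± 1.13, GBP6 with 0.849 ± 0.165, GBP4 with 0.636 ± 0.110, GBP7 with 0.0413 ± 0.00978 and GBP5 with 0.0232 ± 0.0137 CPM per kilobase (SD, n = 3). There GBP2 and GBP3 overlapped, as did GBP7 and GBP5, while GBP4 lay below GBP6 in all 3 libraries.

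**Figure D1:**
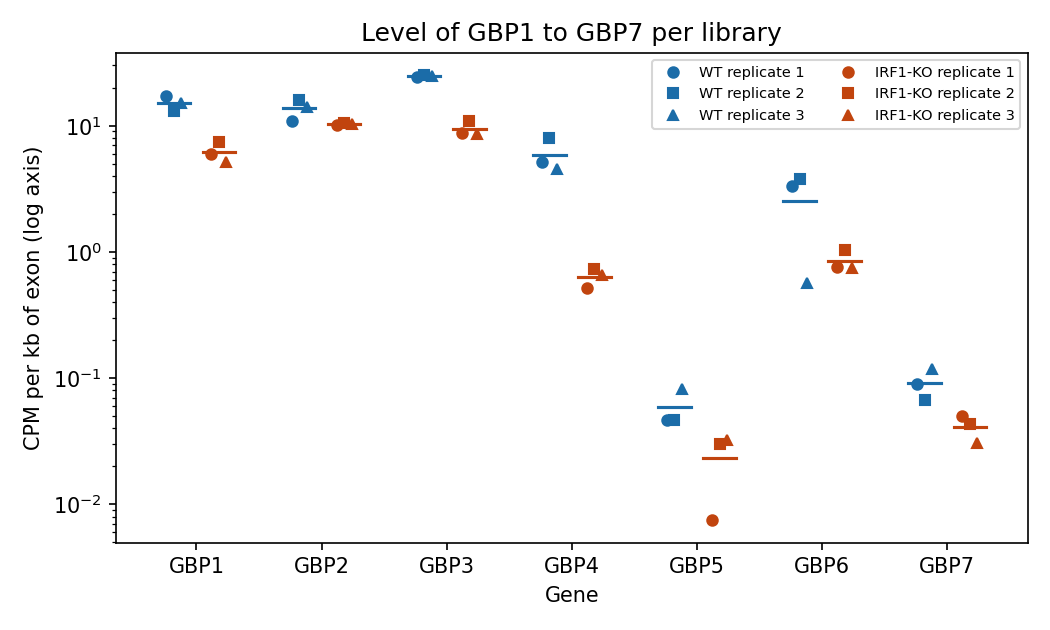
Level of each GBP gene per library in CPM per kilobase of exon on a log axis, with WT in blue, IRF1-KO in red, a marker shape for each replicate number and a bar at the group mean (n = 3). GBP4 separates the groups most widely, GBP2 has the 2 groups closest together among GBP1 to GBP4, and for GBP6 WT replicate 3 lies at 0.563, below all IRF1-KO libraries.

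GBP4 and GBP3 fell in the libraries labelled IRF1-KO. They were 2 of the 5 members with enough counts to be tested, beside 0.112% of all 13388 tested genes called lower by the same rule (edgeR quasi-likelihood, adjusted p under 0.05). All 5 tested members had negative log2 fold changes, with a median of −1.40 against −0.02 over all tested genes, and 4 of the 5 had every IRF1-KO library below every WT library, as did 6.75% of all tested genes. At an unadjusted p under 0.05 all 5 were lower, beside 3.75% of tested genes, and DESeq2 called 3 members lower (GBP1, GBP3 and GBP4), beside 0.915% of the genes it tested. In bulk libraries fewer cells that express a gene and less RNA per cell cannot be told apart. Summed over the 7 members, the level was 309, 348 and 312 CPM in the WT pools, against 145.5, 166 and 143 CPM in the pools labelled IRF1-KO. The groups lay farther apart than the spread within either of them.

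GBP4, a member without a prenyl anchor that joins the GBP coat on bacteria, had 31.5, 49.0 and 27.7 CPM in the WT pools, against 3.17, 4.50 and 4.04 CPM in the pools labelled IRF1-KO. The lowest WT library was far above the highest IRF1-KO library. The log2 fold change was −3.19 ± 0.26 (SE; 95% interval −3.80 to −2.58), a fall of 9.15-fold with an interval of 5.99-fold to 13.97-fold (adjusted p = 0.00737). The raw counts behind this were 575 to 900 in WT and 52 to 129 in IRF1-KO libraries. The call was lost without IRF1-KO replicate 1 (−3.05, adjusted p = 0.0711) and without IRF1-KO replicate 3 (−3.22, adjusted p = 0.0659), and in those fits the direction and size were alike.

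GBP3, which is also recruited to the coat that GBP1 starts, had 105, 108 and 106 CPM in the WT pools, against 37.7, 46.4 and 36.8 CPM in the pools labelled IRF1-KO. The WT libraries lay within 2.57 CPM of each other (coefficient of variation 1.26%), the smallest relative spread of any of the 7 members in either group. The log2 fold change was −1.40 ± 0.12 (SE; 95% interval −1.68 to −1.11; adjusted p = 0.00844), a fall of 2.63-fold with an interval of 2.16-fold to 3.202-fold. The interval did not overlap that of GBP4. The call was lost without WT replicate 2 (−1.39, adjusted p = 0.0591), without IRF1-KO replicate 1 (−1.33, adjusted p = 0.0924) and without IRF1-KO replicate 3 (−1.33, adjusted p = 0.0659). It was also lost with the replicate number as a block and a GC offset together (−1.36, adjusted p = 0.0555).

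GBP1, the member that senses lipopolysaccharide, missed the threshold narrowly. It had 83.3, 63.3 and 73.3 CPM in the WT pools, against 28.9, 36.0 and 25.2 CPM in the pools labelled IRF1-KO, with no overlap between groups. The log2 fold change was −1.29 ± 0.17 (SE; 95% interval −1.68 to −0.89; adjusted p = 0.0542), within the interval of GBP3. GBP1 was past the threshold with DESeq2 (−1.28, adjusted p = 2.22e-08), with no filter on low counts (adjusted p = 0.0244), with a stricter filter (adjusted p = 0.0434) and without WT replicate 3 (−1.27, adjusted p = 0.0461), and its adjusted p ranged up to 0.258 over 15 alternatives.

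GBP2, a prenylated member that joins GBP1 on bacteria and vacuoles, had the smallest log2 fold change of the tested members. It stood at 78.5, 116 and 102 CPM in the WT pools, against 73.3, 75.4 and 73.9 CPM in the pools labelled IRF1-KO. The groups did not overlap, although WT replicate 1 was close to the IRF1-KO range, and the IRF1-KO libraries were within 2.09 CPM of each other. The log2 fold change was −0.42 ± 0.15 (SE; 95% interval −0.76 to −0.07; unadjusted p = 0.0247 and adjusted p = 0.434, edgeR quasi-likelihood). The 95% interval thus reaches a ratio of 1.70-fold at most, below the lower bound of GBP3 at 2.16-fold and of GBP1 at 1.86-fold. No alternative called GBP2.

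GBP6, the 1 member on the plus strand and at the upper end of the cluster, had the widest relative spread among the WT pools (coefficient of variation 68.1%). The WT pools had 9.96, 11.3 and 1.68 CPM, from 182, 207 and 35 counts, and the pools labelled IRF1-KO had 2.26, 3.11 and 2.25 CPM. WT replicate 3 was below all 3 IRF1-KO libraries, so the groups overlapped. The log2 fold change was −1.58 ± 0.63 (SE; 95% interval −3.05 to −0.11; adjusted p = 0.516). Without WT replicate 3 it was −2.03 with an adjusted p of 0.0409. The same library was the lowest WT library for GBP4 and lay between the other WT libraries for GBP1, GBP2 and GBP3. It was also low in the ductal markers CDH1, KRT7, MUC1 and EPCAM, and the part of that difference in these results was not tested beyond leaving the library out. Without it GBP4 (−3.33) and GBP3 (−1.38) were still called, and 91 genes in all were called in place of 17.

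GBP5, which promotes NLRP3 inflammasome activity and restrains the protease furin, and GBP7 were counted too thinly to be tested. GBP5 had 7, 7 and 14 counts in the WT pools, against 1, 7 and 7 in the pools labelled IRF1-KO. GBP7 had 4, 3 and 6 counts, against 2, 3 and 2. With no filter on low counts their log2 fold changes were −1.24 ± 0.63 and −1.14 ± 0.67 (SE), with adjusted p of 0.724 and 0.801 (edgeR quasi-likelihood). Scaled to library size, the lowest WT library was above the highest IRF1-KO library for both genes, at 0.381 against 0.262 CPM for GBP5 and 0.163 against 0.122 CPM for GBP7, although the counts themselves overlapped. These gaps are of a few counts, and no difference was detectable by the test at this depth.

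GBP2 took a larger and GBP4 a smaller share of the family in every library labelled IRF1-KO than in any WT library. GBP2 made up 17.8, 24.3 and 24.0% of the summed level per length in the WT pools, against 38.7, 34.2 and 40.2% in the pools labelled IRF1-KO. GBP4 made up 8.38, 12.1 and 7.63%, against 1.97, 2.40 and 2.59%. The share of GBP3 went from 39.9 ± 1.82% to 34.2 ± 1.05% (SD, n = 3 each). These 3 shares did not overlap between groups, and each had an exact two-sided permutation p of 0.1, the smallest that 3 against 3 libraries can give, and 0.233 after Benjamini-Hochberg adjustment over the 7 shares. The share of GBP1 was 24.4 ± 4.27% and 22.4 ± 1.99% (exact permutation p = 0.5, SD, n = 3) and overlapped. A ratio within libraries shows unequal change and not that a member stayed constant. The sizes of the shares rest on merged-exon lengths. Without length scaling the GBP2 difference between groups was 18.7 percentage points in place of 15.7, and that of GBP4 was −8.48 in place of −7.04. The summed level itself was 62.1 ± 3.52 CPM per kilobase in WT and 27.4 ± 2.72 in IRF1-KO libraries (SD, n = 3).

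**Figure D2:**
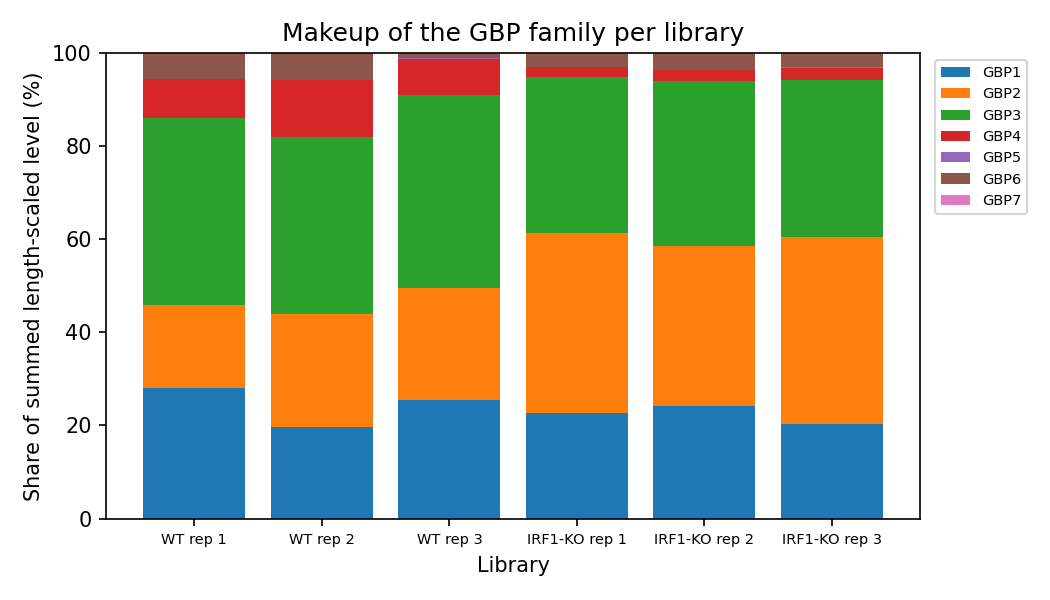
Stacked bars give the percent of the summed length-scaled level of GBP1 to GBP7 that each member takes, for each of the 6 libraries. The orange GBP2 segment is wider in every IRF1-KO library (34.2 to 40.2%) than in every WT library (17.8 to 24.3%), and the red GBP4 segment is narrower.

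The genes of the count table beside the cluster had log2 fold changes between −0.14 and 0.43. The nearest neighbours in that table are RBMXL1, an RNA-binding protein gene 13719 bases below GBP3, and LRRC8B, a subunit gene of volume-regulated anion channels 138375 bases above GBP6. Other annotated genes nearby, such as the pseudogene GBP1P1, have no row in it. RBMXL1 had a log2 fold change of −0.07 ± 0.14 (SE) and LRRC8B of −0.14 ± 0.16 (SE). All 8 genes of the count table within 1 Mb were tested and 0 were called (edgeR quasi-likelihood, adjusted p at least 0.725). At an unadjusted p under 0.05 there were 0, DESeq2 called 0, and 0 had groups that did not overlap. Over all tested genes the shares in either direction were 0.127% called, 9.14% at that unadjusted p, 2.4% called with DESeq2 and 14.8% without overlap, so counts of 0 or near it among 8 genes are little different from the background. Their median was −0.02, with a range from −0.14 for GTF2B to 0.43 for LRRC8C.

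**Figure D3:**
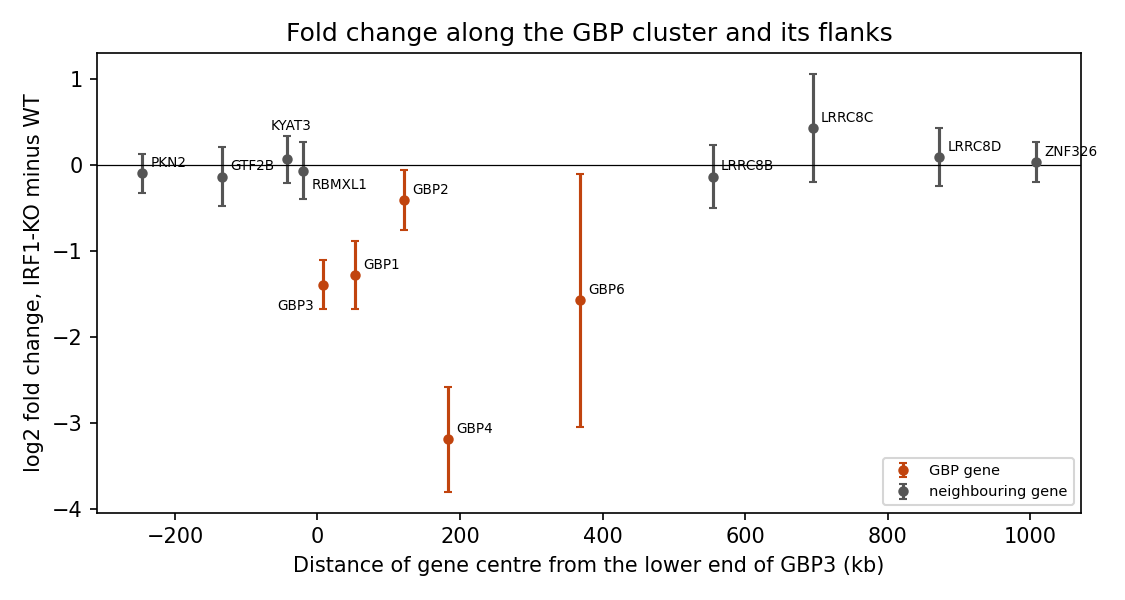
Log2 fold change of IRF1-KO minus WT with its 95% interval, plotted against the distance of each gene's centre from the lower end of GBP3 in kilobases, for the 5 tested GBP genes (red) and the 8 neighbouring genes (grey). The neighbours lie between −0.14 and 0.43 on both sides, and the GBP genes between −3.19 and −0.42.

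Parts of the GBP genes share sequence with each other or with other genes, which limits how well reads could be assigned. GBP2 and GBP7 share 621 bases of exon on the same strand in the count table, 8.60% of the GBP2 exons and 25.5% of the GBP7 exons. Of the 50-base windows of the longest coding transcript in GENCODE 29, 24.4% in GBP7 and 13.3% in GBP1 also occurred in a transcript of another gene, against 4.14% in GBP3, 4.08% in GBP4, 3.09% in GBP2, 0.749% in GBP6 and 0.710% in GBP5. GBP1 shared 10.9% of its windows with the pseudogene GBP1P1, which has no row in the table, and 3.12% with GBP3. With windows of 100 bases the shares were 1.87% for GBP1, 22.2% for GBP7, 0.1% for GBP4 and 0 for GBP2, GBP3, GBP5 and GBP6. Read length and the counting of reads with several matches were not given in the sources used here. Values of GBP7 are uncertain for this reason, as are those of GBP1 and, through the exon bases shared with GBP7, of GBP2 to a smaller extent. Transcript GC content was 39.5 to 46.9% for the 7 members, with GBP2 the highest. The libraries differed along GC content: tested genes over 65% GC, a class without any GBP gene, deviated by medians of −0.59, −0.13 and −0.10 log2 CPM in the WT pools and 0.10, 0.46 and 0.31 in the pools labelled IRF1-KO. The 4984 tested genes under 45% GC, a class without GBP2, deviated by medians of −0.06 to 0.03 log2 CPM per library, and with a correction for GC content the log2 fold changes were −3.14 for GBP4, −1.35 for GBP3 and −1.24 for GBP1.

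No gene upstream of the GBP genes passed the threshold with edgeR. Of 18 genes of interferon and IRF signalling, 14 were tested and 12 had negative values, with a median of −0.30. At an unadjusted p under 0.05, 5 were lower and 2 higher, beside 9.14% of all tested genes in either direction, and DESeq2 called 2. The receptor chains IFNGR1 and IFNGR2 had −0.08 ± 0.13 and −0.07 ± 0.17 (SE), and were chosen after their values were seen.

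Genes that act with GBP proteins against bacteria or in cell death included values as large as that of GBP4, none past the threshold with edgeR. Of 14 caspase and inflammasome partners 11 were tested, with a median of −0.53, 7 negative values (53.3% of all tested genes were negative) and 4 lower at an unadjusted p under 0.05, beside 3.75% of all tested genes. DESeq2 called 4 lower, beside 0.915%. CASP1, the caspase that cleaves interleukin-1 beta, had 2.96, 3.75 and 5.82 CPM in the WT pools, against 0.366, 0.524 and 0.187 CPM, with no overlap. Its log2 fold change was −3.52 ± 0.48 (SE; adjusted p = 0.0555 by the edgeR quasi-likelihood test, 4.09e-08 by DESeq2). APOL3, which permeabilizes bacteria after the GBP coat forms, had 12.5, 16.9 and 13.5 CPM in the WT pools, against 0.366, 1.92 and 0.749 CPM, and a log2 fold change of −3.76 ± 0.51 (SE; adjusted p = 0.0616 by the edgeR quasi-likelihood test, 2.78e-13 by DESeq2). CASP4, which binds the GBP1 coat, had −0.53 ± 0.12 (SE) and groups that did not overlap. The pore protein gene GSDMD had 0.23 ± 0.19 (SE). APOL3, CASP4 and GSDMD were chosen after their values were seen.

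Genes that anchor or deliver GBP proteins had medians near 0. All 6 prenylation and CaaX processing genes were tested with 0 past the threshold (1 lower at an unadjusted p under 0.05, 0 with DESeq2) and a median of −0.11. The same shares of all tested genes, 3.75% lower at that p and 0.915% lower with DESeq2, are the background for this list and the next lists. FNTA, the alpha subunit shared by the enzymes that prenylate CaaX proteins, had the smallest p at −0.36 ± 0.11 (SE). All 13 genes of ATG8 conjugation and GBP delivery were tested, again with 0 past the threshold with edgeR, 1 lower and 1 higher at an unadjusted p under 0.05 and 1 lower with DESeq2, and the median was 0.05. TRIM21, an interferon-inducible ubiquitin ligase, had the smallest p at −0.69 ± 0.16 (SE).

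Of 14 other large GTPases 13 were tested, 0 passed the threshold with edgeR or DESeq2, 2 were lower at an unadjusted p under 0.05, and the median was −0.09. The interferon-inducible antiviral GTPase MX2 had the smallest p, with 13.6, 46.2 and 60.3 CPM in the WT pools, against 3.11, 12.5 and 3.93 CPM, and a log2 fold change of −2.60 ± 0.71 (SE; adjusted p = 0.302, edgeR quasi-likelihood). MX1 had −2.27 ± 0.72 (SE) with overlapping groups. The spread of MX1 and MX2 between WT pools was wider than that of GBP3. The atlastin genes ATL1, ATL2 and ATL3, whose products are the structural relatives of GBPs that fuse endoplasmic reticulum membranes, had −0.09 ± 0.35, −0.16 ± 0.15 and −0.09 ± 0.11 (SE). MX1 and the atlastins were chosen after their values were seen.

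**Figure D4:**
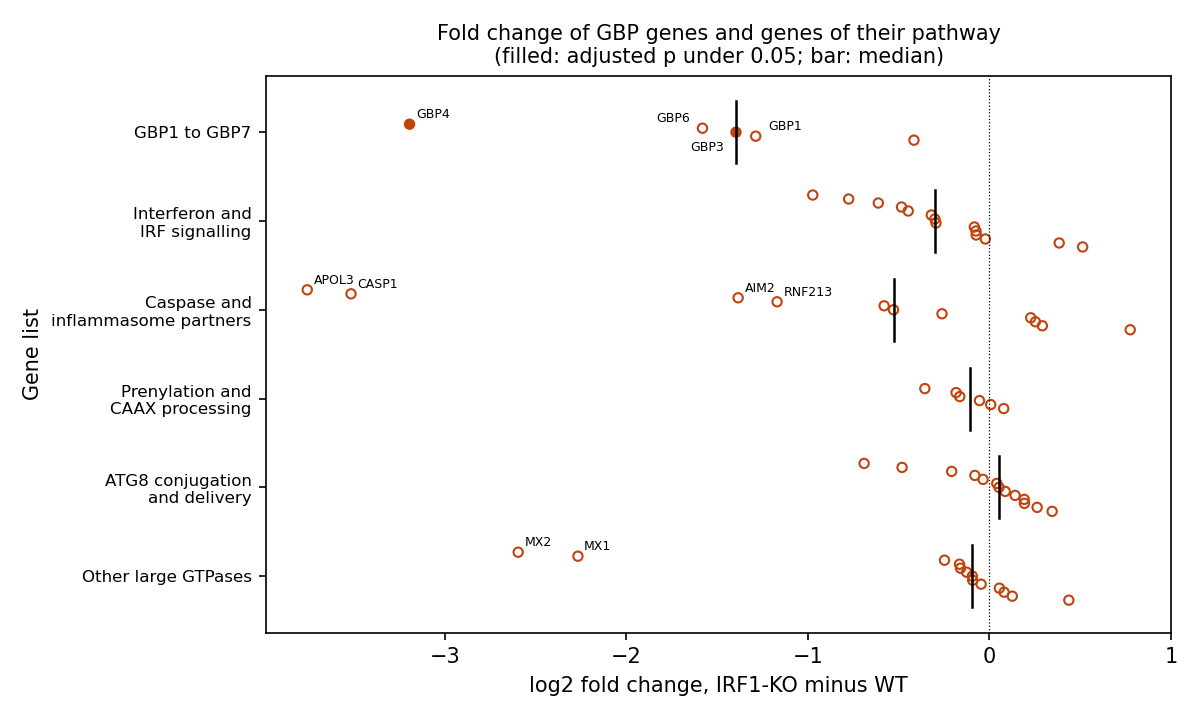
Log2 fold change of IRF1-KO minus WT for each tested gene (circles, filled where the adjusted p is under 0.05) in the GBP family and in 5 lists of related genes, with a bar at the median of each list and names for genes below −1. GBP4 and GBP3 are the filled circles, and the list medians run from −1.40 for the GBP genes to 0.05 for the ATG8 conjugation genes.

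The genes most like the mean profile of the 5 tested members over the 6 libraries were GALNT14 (Pearson r = 0.99), RNF213 (0.99), GANC (0.99), USF1 (0.99) and LGALS9 (0.99), and 75 tested genes outside the family had an r of at least 0.95. With 6 points that share the group difference and the library scaling these values are a description. RNF213, a giant ubiquitin ligase that marks bacterial lipopolysaccharide, had a log2 fold change of −1.17 and LGALS9, which encodes galectin-9, of −1.84, with adjusted p of 0.0718 and 0.0854 (edgeR quasi-likelihood). Among the members themselves r to the same profile, to which each contributes, was 0.98 for GBP4, 0.97 for GBP3, 0.93 for GBP1, 0.76 for GBP6 and 0.75 for GBP2.

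**Figure D5:**
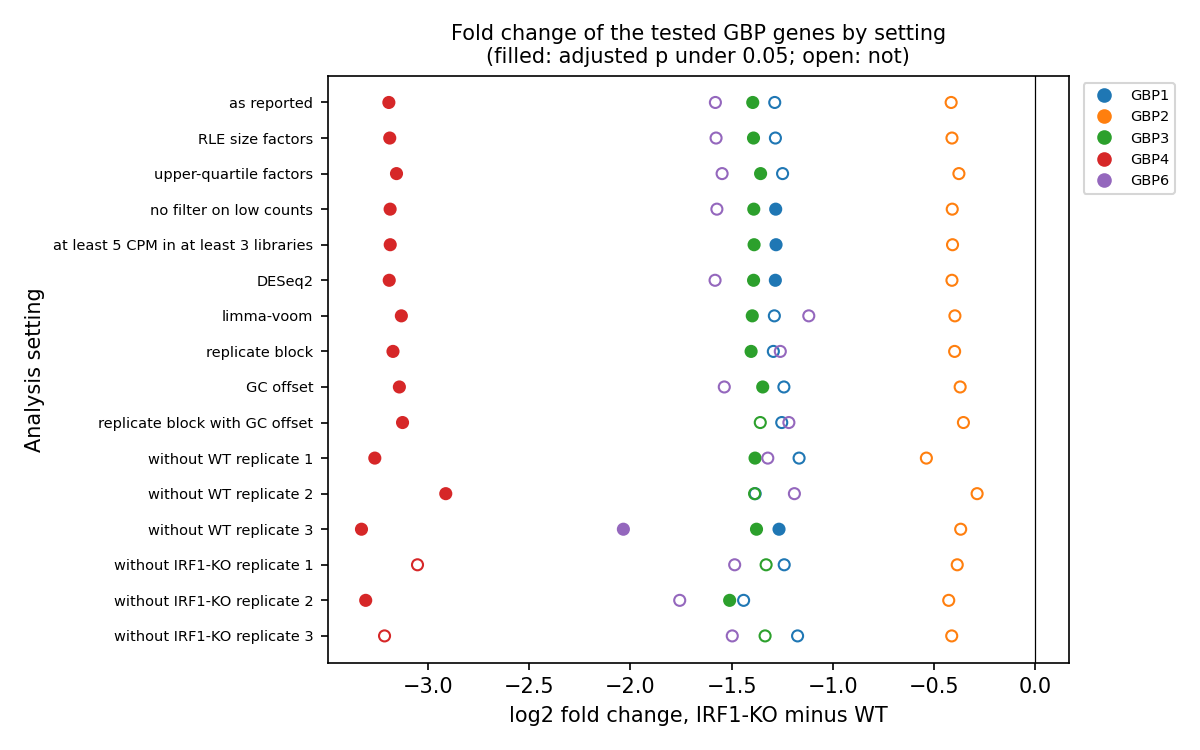
Log2 fold change of each tested GBP gene (colours) under the reported analysis and 15 alternatives, filled where the adjusted p is under 0.05. GBP4 stays between −3.33 and −2.91 and GBP3 between −1.51 and −1.33, whereas GBP6 moves from −1.12 to −2.03 and is filled only without WT replicate 3.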

How the data were processed

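The authors deposited raw whole-number counts per gene with gene lengths, laid out as featureCounts writes them per the file headers. The submitters' processing notes name featureCounts 0.6.1, edgeR 3.2.2 and GRCh38 (hg38). Aligner, annotation and strand setting were not given in the sources used here. Whether pools were grown separately is not stated in the labels, so a p-value may reflect technical spread only. No 2 libraries of a group agreed within sampling noise.

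Counts were tested with edgeR 4.0.16 in R 4.3.3 (filterByExpr, TMM factors, robust quasi-likelihood F test, two-sided), adjusted by Benjamini-Hochberg over 13388 of 19402 genes, at a threshold of 0.05. SEs and 95% intervals follow from the F statistic. Profiles used log2 CPM with a prior count of 2. The alternatives changed the scaling (RLE, upper quartile), the filter (none, or 5 CPM in 3 libraries) and the tool (DESeq2 1.42.0, limma-voom 3.58.1), added the replicate number as a block, a GC offset (spline, 5 degrees of freedom) or both, or left out each library.

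The members and gene lists were chosen with earlier results of these data known. Named were the 7 members, IRF1, each list's called genes or else its smallest p, the nearest neighbours and the 5 genes most like the family profile. The gene this rule named in the interferon list is not reported here.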

Additional observations from a re-analysis of the deposited data

How the results depend on the processing

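All 5 tested members kept a negative log2 fold change in every alternative that gave a value: 15 each for GBP1, GBP2, GBP3 and GBP4, and 14 for GBP6, which the stricter filter removed. GBP4 was called in 13 of 15, GBP3 in 11, GBP1 in 4, GBP6 in 1 of 14 and GBP2 in 0. GBP1 came past the threshold at -1.28 with no filter, with the stricter filter and with DESeq2. Same-numbered libraries of the 2 groups had deviations correlated at -0.02, 0.25 and 0.06, against -0.295 to 0.245 for differently numbered libraries. The numbers were therefore not taken to pair the libraries. With the replicate number as a block GBP4 (-3.17) and GBP3 (-1.40) were called, and with the block and the GC offset GBP3 was not (-1.36, adjusted p = 0.0555), which left 1 member called. Over all genes 17 were called, 31 with no filter, 344 with DESeq2, 31 with the replicate block and 11 with the block and the GC offset. Leaving out 1 library gave ranges of -1.44 to -1.17 for GBP1, -0.54 to -0.29 for GBP2, -1.51 to -1.33 for GBP3, -3.33 to -2.91 for GBP4 and -2.03 to -1.19 for GBP6. It gave 0 to 4 called members, 0 without IRF1-KO replicate 1 or 3 and 4 without WT replicate 3, and 3 to 91 called genes in all. The cause was not tested, beyond fewer samples in each such fit. Differences in share moved by less than the larger of the 2 group SDs in all 49 alternatives. That bound is wide for some members. The GBP1 difference ran from -4.34 to -0.17 percentage points, that of GBP6 from -2.50 to -0.12, and those of GBP5 and GBP7 changed sign. The GBP2 difference stayed between 13.6 and 18.7 and that of GBP4 between -8.48 and -5.69. No alternative used transcript lengths. Depth limits GBP5 and GBP7.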
